A study of Mus musculus with 8 samples.

Results

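The BAF (SWI/SNF) chromatin remodeling complex was followed through the mRNA levels of 10 of its subunits, *Smarca4*, *Smarcb1*, *Smarcc1*, *Smarcc2*, *Smarcd1*, *Smarce1*, *Arid1a*, *Arid1b*, *Dpf2* and *Ss18*, chosen by gene symbol out of 50902 genes. All 10 had a single entry on a main chromosome. RNA-seq was performed in E14, a mouse ESC line, grown in N2B27 with LIF and 2i. Both groups carried a Flag- and HA-tagged, siRNA-resistant BAZ2A transgene integrated by the piggyBac transposase, were transfected with siRNA against *Baz2a* and were harvested 3 days later. They differ in the transgene: ESC + F/H-BAZ2ArWT express wild-type BAZ2A, and ESC + F/H-BAZ2ArΔTAM express BAZ2A without TAM, its RNA-binding domain. There were 4 libraries of each line. According to the methods, the lines were picked as single-cell clones after puromycin selection, so the TAM deletion and the clone cannot be told apart, and p-values measure the spread between libraries of a line.

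BAF complexes use the energy of ATP to slide and evict nucleosomes, and they keep enhancers and promoters accessible in ESCs. A core built on SMARCC and SMARCD carries an ATPase, SMARCA4 (BRG1) or SMARCA2 (BRM), and in canonical BAF and PBAF, but not in non-canonical BAF, it also holds SMARCB1 and SMARCE1. Accessory subunits then set the subtype: ARID1A or ARID1B with DPF2 in canonical BAF, ARID2, PBRM1, BRD7 and PHF10 in PBAF, and BRD9 with BICRA or BICRAL in non-canonical BAF. Many positions can be filled by any of several paralogues, and the form typical of ESCs (esBAF) is known for SMARCA4 and SMARCC1 in place of SMARCA2 and SMARCC2. The lines compared here ask whether mRNA levels of this machinery differ when BAZ2A, a subunit of another remodeling complex, lacks its RNA-binding domain.

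Libraries of ESC + F/H-BAZ2ArWT had 7255618 to 7686802 reads on genes and those of ESC + F/H-BAZ2ArΔTAM 6560881 to 8662855, as recovered from the RPKM by taking the smallest step of a library as 1 read. They are 14.8% to 15% of the library totals that the RPKM imply, and whether a step is exactly 1 read is not given in the sources used here. *Baz2a* mRNA, from the transgene together with what the siRNA left of the endogenous transcript, was at 9.95 to 11.2 RPKM in ESC + F/H-BAZ2ArWT and at 17.0 to 18.9 RPKM in ESC + F/H-BAZ2ArΔTAM, so the lines also differ in *Baz2a* mRNA. All 10 ESC markers examined were expressed in both lines. Among markers of other cells, 1 of 6 fibroblast, 3 of 4 neural, 1 of 4 primed-epiblast and 1 of 4 endoderm genes averaged 10 or more reads, and *Col3a1*, *Dcn* and *Fgf5* were at 0. The summed level of the ESC markers, in exonic RPKM (reads per kilobase of merged exons, with the reads on genes as the total), was 4995 to 5092 in ESC + F/H-BAZ2ArWT and 4155 to 4462 in ESC + F/H-BAZ2ArΔTAM. Most of it was *Dppa5a*, and without that gene it was 1567 to 1599 and 1419 to 1494. The primed-epiblast sum was 12.1 to 13.1 and 18.9 to 20.8, nearly all of it *Dnmt3b*, and without that gene it was lower in ESC + F/H-BAZ2ArΔTAM, at 0.447 to 0.851 and 0.346 to 0.420. The endoderm sum was 1.31 to 1.39 and 1.52 to 1.83, most of it *Gata4*, and without that gene the lines overlapped (0.168 to 0.391 and 0.260 to 0.331). The neural sum overlapped (11.1 to 13.0 and 10.1 to 12), but without *Tubb3*, its highest gene, it was 4.61 to 5.85 and 2.42 to 2.78. The fibroblast sum overlapped with *Pdgfrb* (4.46 to 5.13 and 4.16 to 5.60) and without it (0.164 to 0.283 and 0.165 to 0.438). The part of these shifts in the results on BAF genes was not tested, and in bulk RNA a change in every cell and a change in the mix of cells cannot be told apart.

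Of the 10 BAF subunits, *Arid1a* and *Dpf2* rose and *Smarca4* fell in ESC + F/H-BAZ2ArΔTAM, by no more than 21.6%, and the other 7 did not pass the test. The test was limma on log2(RPKM + 0.01) over the 12657 genes averaging 10 or more reads, and a gene was called at a Benjamini-Hochberg adjusted p under 0.05 over all of them. At this threshold 38.4% of all genes tested were called (19.3% higher and 19.1% lower), against 3 of 10 BAF subunits, so the share called among BAF subunits lay near the background. Their median log2 fold change was 0.034, against -0.0035 over all genes tested, and their median absolute change was 0.077, against 0.16. None of the 10 reached an absolute log2 fold change of 0.58 with an unadjusted p under 0.05, the study's thresholds, which 7.19% of all genes tested passed. At an unadjusted limma p under 0.05 alone, 4 of the 10 stood out, against 47.9% of all genes tested. The 2 lines did not overlap for 4 of the 10 subunits, *Arid1b* in addition to the 3 called, against 37.8% of all genes tested.

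For orientation, the promoters of the 3 called subunits are shown, from RefSeq on GRCm38.p6 (mm10), 5′ to 3′ on the gene's strand from 250 bases before to 50 bases after the RefSeq transcription start. Capitals mark matches to the GC box bound by SP/KLF factors (GGGCGG) or to the CCAAT box bound by NF-Y, on either strand.
*Smarca4*, chr9:21615919-21616218, + strand: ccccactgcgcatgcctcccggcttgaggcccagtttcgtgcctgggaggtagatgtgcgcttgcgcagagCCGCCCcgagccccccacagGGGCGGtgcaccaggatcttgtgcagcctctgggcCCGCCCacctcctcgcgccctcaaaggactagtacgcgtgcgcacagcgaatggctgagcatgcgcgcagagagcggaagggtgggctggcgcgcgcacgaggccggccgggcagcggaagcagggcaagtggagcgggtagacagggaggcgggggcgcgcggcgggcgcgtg
*Arid1a*, chr4:133756720-133757019, - strand: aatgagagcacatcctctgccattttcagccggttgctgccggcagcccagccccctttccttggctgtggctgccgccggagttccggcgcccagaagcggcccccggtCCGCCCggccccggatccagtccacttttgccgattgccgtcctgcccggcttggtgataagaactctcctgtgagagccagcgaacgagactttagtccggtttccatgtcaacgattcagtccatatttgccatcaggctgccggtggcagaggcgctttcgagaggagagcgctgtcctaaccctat
*Dpf2*, chr19:5912822-5913121, - strand: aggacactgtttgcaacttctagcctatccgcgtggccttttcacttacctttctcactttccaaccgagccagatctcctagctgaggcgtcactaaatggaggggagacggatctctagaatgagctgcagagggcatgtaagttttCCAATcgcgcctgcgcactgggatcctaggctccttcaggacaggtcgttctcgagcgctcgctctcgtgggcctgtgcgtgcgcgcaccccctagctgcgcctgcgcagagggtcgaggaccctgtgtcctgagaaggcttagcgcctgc
The RefSeq start coincides with the 5′ end of the deposited gene for *Smarca4* and *Arid1a* and lies 139 bases inside it for *Dpf2*. The *Smarca4* window holds 3 GC boxes and the *Arid1a* window shown 1, while the *Dpf2* window holds a CCAAT box and no GC box. RefSeq gives *Arid1a* a second start, 2784 bases inside the gene, whose window holds 7 GC boxes. RefSeq windows were found for 8 of the 10 subunits, 9 in all with both of *Arid1a*. A GC box is in 8 of these 9 windows and in at least 1 window of 7 of the 8 genes, against 35.6% of 32817 promoters. All 9 are rich in CpG, with 20 to 48 CpG dinucleotides per 300 bases against a median of 7 over all promoters. The GC box itself contains a CpG, so all promoters are not a like background for its share in these windows. The other motifs searched, also on both strands, were less common: the ETS motif CCGGAAG occurs in 1 of the 9 windows, against 8.86% of all promoters, and the YY1 motif AAGATGG in 1, against 6.34%. The E-box CACGTG, the TATA box TATAAA and the palindromic NRF1 motif occur in 0 of the 9, against 7.15%, 13.6% and 0.966%. CCAAT occurs in 1 of the 9, against 37.4%.

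**Figure D1:**
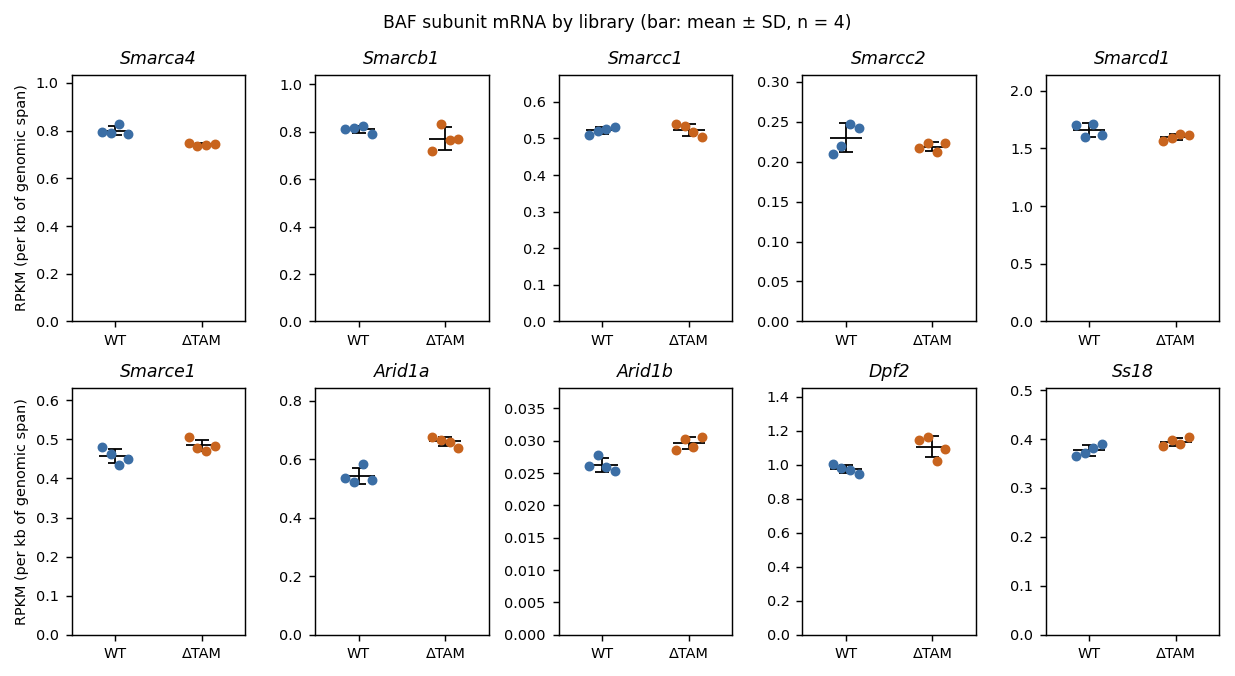
Deposited RPKM (per kilobase of genomic span, linear axes from 0) of the 10 BAF subunits in each of the 4 ESC + F/H-BAZ2ArWT (WT) and 4 ESC + F/H-BAZ2ArΔTAM (ΔTAM) libraries; points are libraries and bars the mean ± SD. The lines are apart for *Smarca4*, *Arid1a*, *Arid1b* and *Dpf2* and overlap for the other 6.

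*Smarca4* encodes BRG1, the ATPase that drives the complex in ESCs, and its gene occupies bases 21616169 to 21704230 of chromosome 9 (mm10, as all positions here). Single libraries held 0.796, 0.792, 0.828 and 0.784 RPKM in ESC + F/H-BAZ2ArWT and 0.747, 0.735, 0.741 and 0.744 RPKM in ESC + F/H-BAZ2ArΔTAM. All ESC + F/H-BAZ2ArΔTAM libraries lay below all ESC + F/H-BAZ2ArWT libraries, with a spread that was narrow on both sides. Averages were 0.800 ± 0.0192 and 0.742 ± 0.00499 RPKM (SD, n = 4 each), so *Smarca4* fell by 7.27%, -0.11 on the log2 scale (SE 0.031, limma adjusted p = 0.0251). A change of at least this size was found for 64.1% of all genes tested. The call is not firm. The adjusted p rose to 0.0526 without ESC + F/H-BAZ2ArWT replicate 1, 0.0660 without ESC + F/H-BAZ2ArWT replicate 3, and 0.0574, 0.0562 and 0.0556 without ESC + F/H-BAZ2ArΔTAM replicates 2, 3 and 4, while the log2 fold change stayed between -0.12 and -0.091 over all 8 fits that left out 1 library. On the reads recovered from the RPKM (2836 to 3805 a library), limma voom gave -0.11 with an adjusted p of 0.00663.

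*Arid1a* encodes a signature subunit of canonical BAF, a protein with an ARID DNA-binding domain, and occupies chromosome 4 from 133679008 to 133756769. It had 0.537, 0.524, 0.583 and 0.528 RPKM in ESC + F/H-BAZ2ArWT and 0.675, 0.667, 0.660 and 0.640 RPKM in ESC + F/H-BAZ2ArΔTAM. The lowest ESC + F/H-BAZ2ArΔTAM library was above the highest ESC + F/H-BAZ2ArWT library, which was replicate 3. With means of 0.543 ± 0.0276 and 0.660 ± 0.0150 RPKM (SD, n = 4 each), *Arid1a* rose by 21.6%, 0.28 on the log2 scale (SE 0.043, limma adjusted p = 0.00138). It had the largest change among the 10 subunits, and 27.7% of all genes tested changed at least as much. The call held in each of the 8 fits that left out 1 library, with log2 fold changes from 0.26 to 0.31 and adjusted p from 9.0e-04 to 0.00539.

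*Arid1b*, on chromosome 17 from 4994332 to 5347656, encodes the alternative ARID1 subunit, which excludes ARID1A from the same complex. The gene spans 353 kb, of which exons make up 3.57%, so RPKM over the span are low. They were 0.0261, 0.0279, 0.0259 and 0.0253 RPKM in ESC + F/H-BAZ2ArWT and 0.0286, 0.0303, 0.0291 and 0.0306 RPKM in ESC + F/H-BAZ2ArΔTAM. Again no library of one line fell within the range of the other. On the log2(RPKM + 0.01) scale its difference was 0.13 (SE 0.049, limma adjusted p = 0.0718), which did not pass. The pseudocount is a large part of so low a value and makes the estimate smaller. On the 446 to 627 reads of *Arid1b* in each library, limma voom gave 0.18 (SE 0.053, adjusted p = 0.00967), where the gene passed. It also passed in limma with a larger pseudocount of 0.1 RPKM (0.038, adjusted p = 0.0411). At 0.01 RPKM without the mean-variance trend it passed too (limma adjusted p = 0.0362). What made the main fit miss it was not tested. Over all genes tested, voom called 43.9%, with 21.9% of all genes tested higher and 21.9% lower.

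*Dpf2*, on chromosome 19 from 5896516 to 5913010, encodes the double PHD finger subunit that binds acylated histone tails and marks canonical BAF. Single libraries gave 1.0, 0.979, 0.968 and 0.947 RPKM in ESC + F/H-BAZ2ArWT and 1.14, 1.16, 1.02 and 1.09 RPKM in ESC + F/H-BAZ2ArΔTAM. The lines did not overlap, although ESC + F/H-BAZ2ArΔTAM replicate 3 came close to ESC + F/H-BAZ2ArWT replicate 1. *Dpf2* rose by 13.5%, from 0.974 ± 0.0231 to 1.11 ± 0.0626 RPKM (SD, n = 4 each), 0.18 on the log2 scale (SE 0.045, limma adjusted p = 0.0139). Leaving out 1 library at a time gave 0.15 to 0.22, with adjusted p from 0.00499 to 0.0361, so the call was kept in all 8 fits.

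*Ss18*, on chromosome 18 from 14624198 to 14682914, encodes a subunit that canonical and non-canonical BAF share and that is fused to SSX in synovial sarcoma. It ran from 0.366 to 0.389 RPKM in ESC + F/H-BAZ2ArWT and from 0.386 to 0.404 RPKM in ESC + F/H-BAZ2ArΔTAM. The ranges overlapped slightly, and the log2 fold change of 0.065 (SE 0.038, limma adjusted p = 0.215) did not pass. Its 95% confidence interval was -0.023 to 0.15.

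The 5 core subunits gave no call, and their fold changes had both signs. *Smarcb1*, on chromosome 10 from 75896769 to 75921617, encodes the subunit that contacts the acidic patch of the nucleosome and is lost in rhabdoid tumours. It had 0.811 ± 0.0148 and 0.771 ± 0.0472 RPKM (SD, n = 4 each in ESC + F/H-BAZ2ArWT and ESC + F/H-BAZ2ArΔTAM), -0.072 on the log2 scale (95% confidence interval -0.18 to 0.033, adjusted p = 0.25 from limma). The ESC + F/H-BAZ2ArΔTAM libraries were more scattered, from 0.718 in replicate 1 to 0.833 in replicate 2, and spanned the whole range of the other line. Without replicate 1 or 2 of ESC + F/H-BAZ2ArΔTAM the log2 value of *Smarcb1* was -0.039 or -0.11.

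*Smarcc1* (BAF155) and *Smarcc2* (BAF170) encode the scaffold on which the core assembles, and lie on chromosome 9 from 110117708 to 110240178 and on chromosome 10 from 128459248 to 128490482. *Smarcc1* had the change nearest 0 among the 10 subunits, with 0.522 ± 0.00916 RPKM in ESC + F/H-BAZ2ArWT and 0.523 ± 0.0163 RPKM in ESC + F/H-BAZ2ArΔTAM (SD, n = 4 each). Its log2 fold change was 0.0028, with a 95% confidence interval of -0.081 to 0.086 and an adjusted p of 0.961 from limma, and its sign turned to -0.022 after quantile normalization. *Smarcc2* was at 0.230 ± 0.0178 and 0.219 ± 0.00583 RPKM (SD, n = 4 each), -0.066 on the log2 scale (95% confidence interval -0.21 to 0.073, adjusted p = 0.425 from limma), and ran from -0.11 without ESC + F/H-BAZ2ArWT replicate 1 to -0.032 without ESC + F/H-BAZ2ArWT replicate 3. In neither gene were the lines separated.

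*Smarcd1* (BAF60A), on chromosome 15 from 99702287 to 99713995, links the complex to transcription factors. It was at 1.66 ± 0.0605 and 1.60 ± 0.0269 RPKM (SD, n = 4 each), -0.050 on the log2 scale (95% confidence interval -0.13 to 0.027, adjusted p = 0.272 from limma). *Smarce1* (BAF57), on chromosome 11 from 99209047 to 99231017, encodes the subunit with an HMG domain that binds DNA. It was at 0.457 ± 0.0187 and 0.484 ± 0.0148 RPKM (SD, n = 4 each), 0.082 on the log2 scale (95% confidence interval -0.016 to 0.18, adjusted p = 0.162 from limma). The upper limits of these intervals are below the estimate for *Arid1a*, as they are for all 5 core subunits. Genes on the other strand overlap 7.13% (*Gm17349*, with a mean of 2.5 reads) and 5.56% (*Gm34939*) of the exons of *Smarcd1*, 1.57% of those of *Smarcc1* (*Dhx30*, with a mean of 1223 reads) and 1.2% of those of *Dpf2* (*Gm42067*, with a mean of 2.25 reads).

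**Figure D2:**
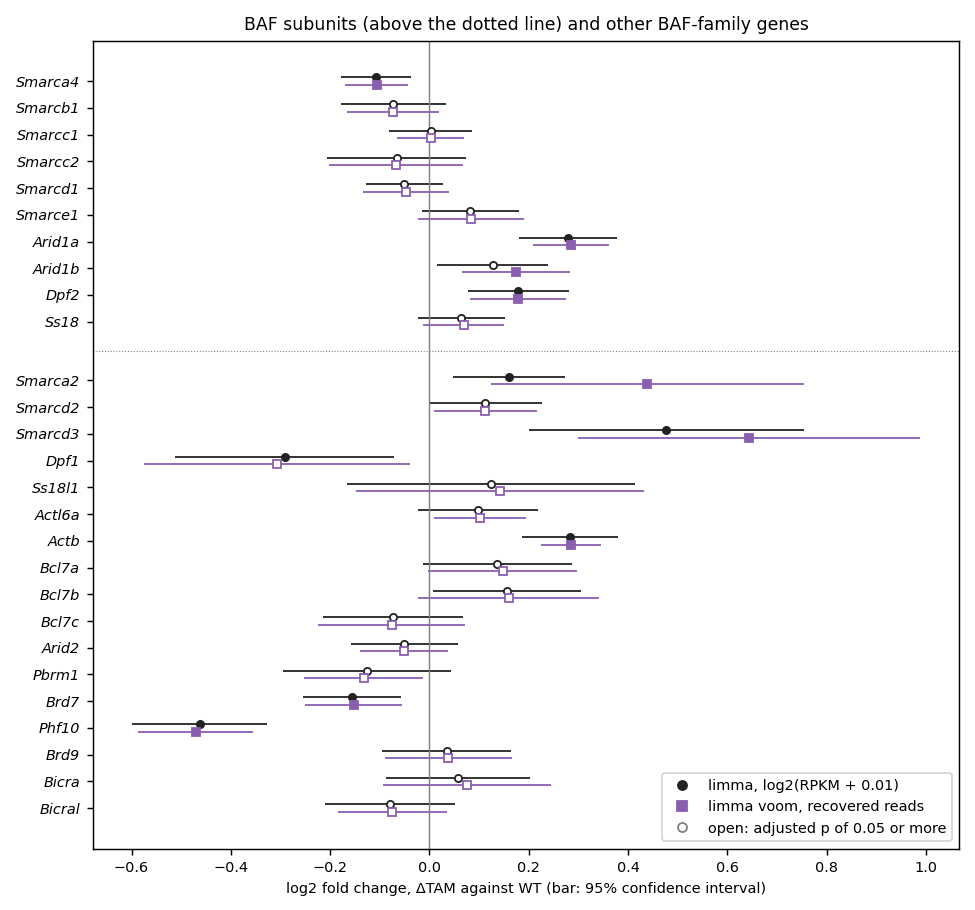
Log2 fold changes of the 10 BAF subunits and of 17 other BAF-family genes in ESC + F/H-BAZ2ArΔTAM against ESC + F/H-BAZ2ArWT (x axis), with 95% confidence intervals, from limma on log2(RPKM + 0.01) (circles) and limma voom on recovered reads (squares); filled symbols have an adjusted p under 0.05. *Arid1a* (0.28) lies farthest from 0 among the 10 subunits, and *Phf10* (-0.46) is the lowest of the 17 other genes.

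Because the deposited RPKM are per kilobase of genomic span, introns included, they do not rank genes with different introns. Levels were therefore also expressed as exonic RPKM. On this scale *Smarca4* came first among the 10 mRNAs at 70.4 ± 3.17 (SD over all 8 libraries), followed by *Smarcc1* at 54.8 ± 1.39, *Smarcd1* at 31.8 ± 1.04 and *Arid1a* at 27.4 ± 2.97. *Dpf2* (17.7 ± 1.40), *Smarcb1* (16.6 ± 0.785) and *Ss18* (16.1 ± 0.523) formed a middle group, and *Smarce1* (10.4 ± 0.481), *Smarcc2* (8.47 ± 0.528) and *Arid1b* (5.26 ± 0.369) were the lowest. With the length of the longest transcript instead, *Smarcc1* (74.4) came before *Smarca4* (71.5), and *Ss18* (36.6), *Dpf2* (34.7) and *Smarce1* (22.3) all came before *Smarcb1* (17.7), so the order at the top and in the middle depends on the length used. With merged exons the level of *Smarca4* was 13.4 times that of *Arid1b*. Neighbours in the order by merged exons had separate ranges except for *Smarcd1* and *Arid1a*, *Dpf2* and *Smarcb1*, and *Smarcb1* and *Ss18*. In the pair *Smarcd1* and *Arid1a* the order held in 7 of 8 libraries and in the other 2 pairs in 5 of 8. Among 12460 genes tested that have an exon length, *Smarca4* was above 95.1% and *Arid1b* above 42.7%, so every one of these subunits was well expressed or near the middle of the range.

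**Figure D3:**
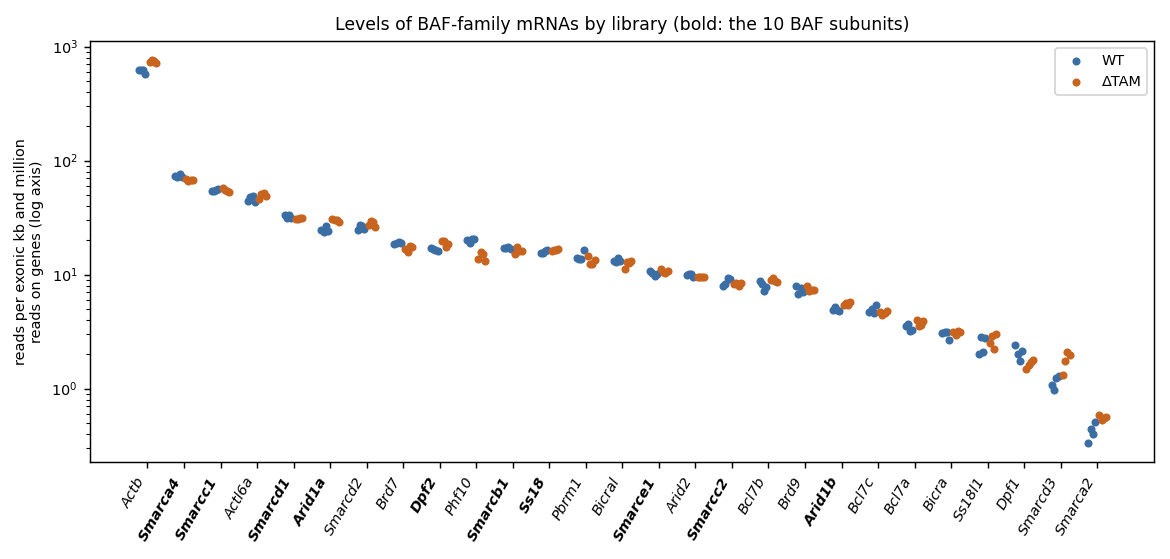
Levels of BAF-family mRNAs in each library, in exonic RPKM on a log axis, ordered by their mean; blue points are the 4 ESC + F/H-BAZ2ArWT and orange points the 4 ESC + F/H-BAZ2ArΔTAM libraries, and the 10 BAF subunits are in bold. *Smarca4* and *Smarcc1* lead the 10 subunits, while *Smarca2*, at the far right, is the lowest gene shown.

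The paralogues that compete for a position in the complex were compared on the same scale. *Smarca4* made up 99.4 ± 0.104% of the ATPase mRNA in ESC + F/H-BAZ2ArWT and 99.2 ± 0.0226% in ESC + F/H-BAZ2ArΔTAM (SD, n = 4 each), the rest being *Smarca2*. *Smarcc1* made up 86.3 ± 0.734% and 86.9 ± 0.498% of the SMARCC mRNA, and *Arid1a* 83.3 ± 1.04% and 84.3 ± 0.667% of the ARID1 mRNA. The paralogues typical of esBAF thus provided most of the ATPase and SMARCC mRNA in both lines. The SMARCD position was more evenly divided, with 54.6 ± 1.52% *Smarcd1* and 43.5 ± 1.62% *Smarcd2* in ESC + F/H-BAZ2ArWT and 51.3 ± 1.30% and 45.8 ± 1.36% in ESC + F/H-BAZ2ArΔTAM, while *Smarcd3*, known from heart and muscle, held 1.92 ± 0.246% and 2.91 ± 0.517%. *Dpf2* made up 88.7 ± 1.06% and 91.5 ± 0.772% of the DPF mRNA and *Ss18* 86.7 ± 2.01% and 86.1 ± 1.46% of the SS18 mRNA. The share of *Dpf2* was higher in every ESC + F/H-BAZ2ArΔTAM library, and was not tested.

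Ratios between paralogues were tested in 6 pairs with a two-sided exact permutation test over the 8 libraries, where the smallest possible p is 0.0286. The log2 ratio of *Smarca4* to *Smarca2* was 7.78, 7.37, 7.58 and 7.16 in ESC + F/H-BAZ2ArWT and 6.87, 6.97, 6.93 and 6.90 in ESC + F/H-BAZ2ArΔTAM, lower in all 4 libraries (difference -0.55, exact permutation p = 0.0286, adjusted over the 6 pairs 0.0857). That of *Smarcd1* to *Smarcd3* was 4.83 ± 0.174 and 4.16 ± 0.278 (SD, n = 4 each), also without overlap (difference -0.68, exact permutation p = 0.0286, adjusted 0.0857). Neither passed after adjustment. For *Smarcd1* to *Smarcd2* the difference was -0.16 (exact permutation p = 0.0571, adjusted 0.114), for *Arid1a* to *Arid1b* 0.11 (p = 0.143, adjusted 0.214), for *Smarcc1* to *Smarcc2* 0.072 (p = 0.200, adjusted 0.240) and for *Ss18* to *Ss18l1* -0.080 (p = 0.571, adjusted 0.571, all exact permutation tests). Without ESC + F/H-BAZ2ArWT replicate 2 the difference for *Arid1a* to *Arid1b* was 0.066, and without ESC + F/H-BAZ2ArWT replicate 3 that for *Smarcc1* to *Smarcc2* was 0.040. With 1 library left out, *Ss18* to *Ss18l1* ran from -0.17 without ESC + F/H-BAZ2ArWT replicate 2 to -0.0056 without ESC + F/H-BAZ2ArWT replicate 1. In these 4 pairs the lines overlapped, so a shift between *Arid1a* and its alternative was not resolved from the spread of the libraries.

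**Figure D4:**
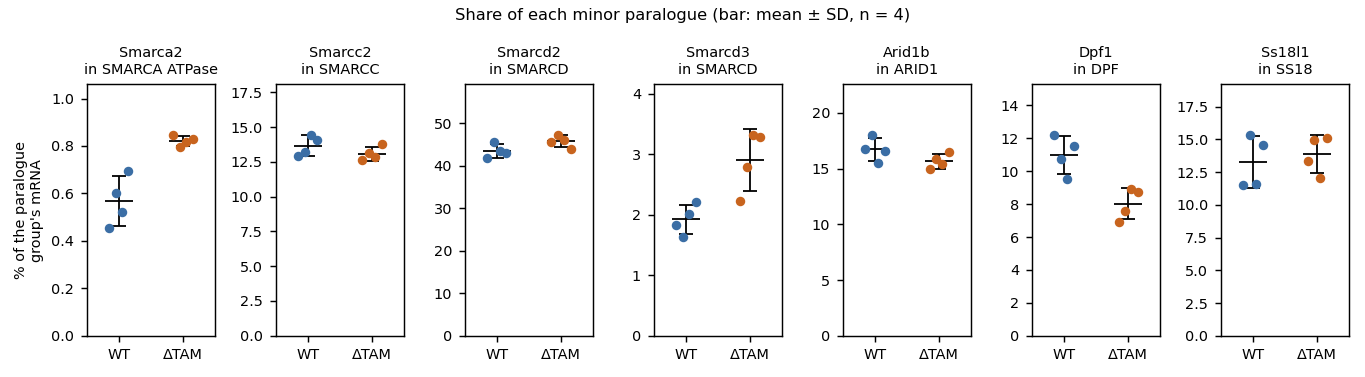
Share of each minor paralogue in the mRNA of its group, as a percentage of summed exonic RPKM (y axes from 0, scaled per panel), in the 4 libraries of each line with mean ± SD. The lines are apart for *Smarca2*, *Smarcd3* and *Dpf1* and overlap in the other 4 panels.

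Of 21 other BAF-family genes, 17 passed the filter on reads, and 3 rose and 3 fell, or 6 of 17 against the background of 38.4%. The other 4, the neuronal subunit gene *Actl6b*, *Dpf3*, *Bcl11a* and *Bcl11b*, had at most 5 reads in any library, and *Actl6b* had 0. Among paralogues and shared subunits 3 rose and 1 fell. *Smarca2*, on chromosome 19 from 26605050 to 26778322, had only 35 to 55 reads per library in ESC + F/H-BAZ2ArWT and 50 to 70 in ESC + F/H-BAZ2ArΔTAM, or 0.00511 ± 8.8e-04 and 0.00688 ± 2.4e-04 RPKM (SD, n = 4 each). The log2 fold change was 0.16 on the RPKM scale (adjusted p = 0.0315 from limma) and 0.44 (SE 0.15, adjusted p = 0.0228) with voom. On the RPKM scale the adjusted p of *Smarca2* was above 0.05 in 7 of the 8 fits that left out 1 library, from 0.0518 without ESC + F/H-BAZ2ArΔTAM replicate 2 to 0.0748 without ESC + F/H-BAZ2ArWT replicate 1, and was 0.0168 without ESC + F/H-BAZ2ArWT replicate 4.

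*Smarcd3*, on chromosome 5 from 24590818 to 24624411, rose from 38 to 50 reads per library to 45 to 87, 0.48 on the log2 scale (SE 0.12, limma adjusted p = 0.0146). With voom, which uses no RPKM pseudocount, the value of *Smarcd3* was 0.64 (SE 0.17, adjusted p = 0.00323). Exons of *Chpf2* on the other strand cover 48.2% of its exons, and the use of strand in counting is not stated, so reads of the 2 genes may be mixed. *Chpf2* itself did not pass (log2 fold change -0.17, adjusted p = 0.273 from limma). *Actb*, a subunit of the complex and above all a cytoskeletal actin, rose from 67.0 ± 3.13 to 81.6 ± 2.27 RPKM (SD, n = 4 each), 0.28 on the log2 scale (adjusted p = 0.00113 from limma). *Dpf1*, a DPF gene typical of neurons, changed by -0.29 on the log2 scale on 53 to 95 reads per library (adjusted p = 0.0421 from limma), but its lines overlapped. That call was lost with voom (adjusted p = 0.0587) and in 6 of the 8 fits that left out 1 library, with adjusted p up to 0.0974 without ESC + F/H-BAZ2ArWT replicate 1, and it was kept without ESC + F/H-BAZ2ArWT replicate 3 and without ESC + F/H-BAZ2ArΔTAM replicate 4. *Smarcd2* (0.11, adjusted p = 0.107) and *Ss18l1* (0.12, adjusted p = 0.475, both from limma) did not pass, nor did the shared subunits *Actl6a* (0.099, adjusted p = 0.174), *Bcl7a* (0.14, adjusted p = 0.133), *Bcl7b* (0.16, adjusted p = 0.0903) and *Bcl7c* (-0.073, adjusted p = 0.383). *Ss18l1* ran from 0.049 without ESC + F/H-BAZ2ArWT replicate 1 to 0.19 without ESC + F/H-BAZ2ArΔTAM replicate 3, and *Bcl7c* was at -0.033 without ESC + F/H-BAZ2ArWT replicate 4.

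Of the 4 PBAF genes, *Phf10* and *Brd7* fell and the other 2 did not pass, against 19.1% of all genes tested that were called lower. *Phf10*, on chromosome 17 from 14945009 to 14961273, encodes the PHD finger subunit that stands in PBAF where DPF2 stands in canonical BAF. It had 0.902, 0.852, 0.927 and 0.923 RPKM in ESC + F/H-BAZ2ArWT and 0.618, 0.709, 0.684 and 0.598 RPKM in ESC + F/H-BAZ2ArΔTAM. The gap between the lines was wider than the range within either. *Phf10* fell by 27.6%, -0.46 on the log2 scale (SE 0.060, limma adjusted p = 5.4e-04), from -0.50 to -0.42 with 1 library left out. Of its exons, 9.57% overlap *1600012H06Rik* on the other strand, whose own change of -0.16 did not pass (adjusted p = 0.204 from limma).

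*Brd7*, a bromodomain subunit of PBAF on chromosome 8 from 88331039 to 88362194, fell by 10.4%, from 0.476 ± 0.00854 to 0.427 ± 0.0203 RPKM (SD, n = 4 each; log2 fold change -0.16, adjusted p = 0.0219 from limma). Its adjusted p was 0.0516 without ESC + F/H-BAZ2ArWT replicate 2 and 0.0567 without ESC + F/H-BAZ2ArWT replicate 3. *Arid2* (-0.050, adjusted p = 0.433) and *Pbrm1* (-0.13, adjusted p = 0.215, both from limma) did not pass, and the value of *Pbrm1* was -0.068 without ESC + F/H-BAZ2ArWT replicate 4. The non-canonical BAF genes *Brd9* (0.035, adjusted p = 0.662), *Bicra* (0.057, adjusted p = 0.509) and *Bicral* (-0.079, adjusted p = 0.307, all from limma) gave no call. At an unadjusted limma p under 0.05, 0 of these 3 passed, against 47.9% of all genes tested. With voom it was also 0 of 3, against 43.9%. Their values also rested on single libraries, with *Brd9* at 9.6e-04 without ESC + F/H-BAZ2ArWT replicate 2, *Bicra* at 0.0092 without ESC + F/H-BAZ2ArWT replicate 4 and *Bicral* at -0.028 without ESC + F/H-BAZ2ArΔTAM replicate 1.

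Canonical BAF and PBAF carry counterparts at 2 positions, and their ratios, chosen after the values were seen and so given without a test, moved in the same direction. *Dpf2* to *Phf10*, in exonic RPKM, was 0.786 to 0.881 in ESC + F/H-BAZ2ArWT and 1.15 to 1.42 in ESC + F/H-BAZ2ArΔTAM. With the length of the longest transcript in place of merged exons it was 1.22 to 1.37 and 1.78 to 2.21, so which of the 2 mRNAs was more abundant in ESC + F/H-BAZ2ArWT depends on the length used. *Arid1a* to *Arid2* was 2.36 to 2.61 and 3.03 to 3.23. The libraries of the 2 lines were apart in both ratios. For *Dpf2* to *Phf10* this had to be so, since *Dpf2* was higher and *Phf10* lower in every ESC + F/H-BAZ2ArΔTAM library. In *Arid1a* to *Arid2*, the lines were already apart for *Arid1a* and overlapped for *Arid2*. The ratios are thus no result apart from those of their genes.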

How the data were processed

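PolyA-selected RNA of 4 samples per line was sequenced as stranded libraries. The authors filtered ribosomal reads (SortMeRNA) and low-quality bases (Trimmomatic), aligned the rest to mm10 by STAR, and deposited RPKM per gene and library from a custom count of exon coverage. Annotation release, strand setting and multimapping policy are not given in the sources used here. After multiplication by genomic span (end minus start), 99.5% to 99.6% of the deposited RPKM values under 200 reads were whole multiples of a step per library (tolerance 0.02), each taken as 1 read. Of 51288 entries, 386 repeated entries of a symbol were set aside. These reads, divided by GENCODE vM21 merged exon length, gave levels per exonic kilobase.

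Lines were compared with limma 3.58.1 in R 4.3.3 (lmFit, eBayes with a mean-variance trend, no covariates) on log2(RPKM + 0.01), for genes averaging 10 or more reads, with Benjamini-Hochberg adjustment over all of them. This filter and pseudocount replaced 0.1 RPKM, under which long genes such as *Arid1b* drop out. Alternatives covered the pseudocount, the filter, scaling, the variance model, voom, the replicate block and each library left out. Paralogue ratios were tested by exact permutation (SciPy 1.17.1). The procedure was tested on simulated reads. Intervals are at 95%. The 10 subunits, other BAF-family genes and markers were chosen with earlier results of these data known. Planned to be named were all 10 subunits, paralogues of these, PBAF and non-canonical BAF subunits and *Baz2a*. Shared subunits, *Actb* among them, were on the list of other BAF-family genes but planned for the counts only. *Actb* and genes overlapping a named gene were named after their values were seen. The values of *Actl6a*, *Bcl7a*, *Bcl7b* and *Bcl7c* also go beyond the plan.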

Additional observations from a re-analysis of the deposited data

Results flagged for a closer look

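The 10 BAF subunits and 17 other BAF-family genes gave 54 groups of 4 libraries, of which 3 held a library far from the rest. Chance alone would mark about 1 in 20 groups. The 3 groups were all of other BAF-family genes. *Actb* was at 62.4 RPKM in ESC + F/H-BAZ2ArWT replicate 4, below 68.4 to 68.9 RPKM in the others. *Pbrm1* was at 0.210 RPKM in the same library, above 0.177 to 0.179 RPKM. *Bicral* was at 0.426 RPKM in ESC + F/H-BAZ2ArWT replicate 3, above 0.398 to 0.401 RPKM.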

How the results depend on the processing

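Of the 10 BAF subunits, 2 were higher in the main analysis and 2 or 3 under each alternative, *Arid1b* being the third. The number lower was 1 in the main analysis and 0 to 1 with a library left out; it was 0 with the replicate number as a block. The deviations of same-numbered libraries from the mean of their line correlated at 0.028, 0.16, 0.10 and 0.17 over 8587 genes, not all over 0.1. By this measure not every library correlated best with its own number, so the numbers were not taken as pairs. The block raised the adjusted p of *Smarca4* to 0.0624, *Smarca2* to 0.0670 and *Dpf1* to 0.0875, lowered that of *Smarcd2* to 0.0325, and left the 2 higher subunits called. The adjusted p of *Arid1b* was under 0.05 with a pseudocount of 0.1 (0.0411) or 1 RPKM (0.0392), quantile normalization (0.0149), no variance trend (0.0362) and voom (0.00967), and up to 0.447 otherwise. *Smarcc1* changed sign with quantile normalization (-0.022) and, among fits that left out a library, ran from -0.012 to 0.021. Exact permutation on log2 RPKM, added after the data were seen, gave *Smarca4*, *Arid1a*, *Arid1b* and *Dpf2* the smallest p it can (0.0286), which becomes 0.0756 over all genes. Other BAF-family genes higher numbered 3, but 1 with no filter and 1 when genes had to average 0.1 RPKM, and 2 to 3 with a library left out. Those lower numbered 3, and 1 to 3 with a library left out. Paralogue ratios kept their direction with each library left out, and the block cannot change their mean differences. With the longest transcript as length, 6 of the 10 subunits changed rank, the first included, and with genomic span 8. Genes with under about 100 reads, such as *Smarca2* and *Smarcd3*, are limited by counting error. The median log2 fold change of all genes, -0.0035, was -0.0020 and -0.0060 under the other scalings.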
